A study of Mus musculus with 12 samples.

Results

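The comparison described here sets 3 livers labelled INFko TGFB+ against 3 livers labelled WT, 6 of the 12 mouse liver arrays of the series, over all 12755 genes that could be tested. INFko TGFB+ stands for mice without the interferon gamma gene Ifng that keep the transforming growth factor beta gene Tgfb1, and WT for BALB/c wild type mice. The series is about acute autoimmune hepatitis, which arises in BALB/c mice without Tgfb1. Neither group here lacks Tgfb1, so the comparison asks how far gene expression in the liver without that disease depends on Ifng. The other 6 arrays, 3 of TGFB KO and 3 of IFNko TGFB1 KO, give the same loss of Ifng in livers without Tgfb1 and serve as a contrast. They also enter the normalization, the filter on brightness, the choice of probe sets and the estimate of the spread. All 4 groups are of the BALB/c strain per the labels, the design text gives 3 mice per group, and no treatment is named. The sources used here do not state the age, the disrupted part of Ifng, whether the INFko TGFB+ mice carry 1 or both copies of Tgfb1, or whether they are littermates of the WT mice.

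IFN-gamma is a cytokine made mainly by T cells and natural killer cells. It binds a receptor of the chains IFNGR1 and IFNGR2, which signals through the kinases JAK1 and JAK2. Genes that respond carry the gamma-activated site (GAS), and among those induced is the gene of IRF1, which binds interferon-stimulated response elements (ISRE). The genes switched on in this way include the GTPases of the guanylate-binding (GBP) and immunity-related (IRG) families, the chemokines CXCL9 and CXCL10, and the machinery that loads peptides on MHC molecules.

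The Ifng probe set had signals of 23.3, 25.9 and 5.95 in the 3 WT arrays, with a mean of 18.4 ± 10.8 (SD, n = 3). In INFko TGFB+ the signals were 7.56, 1.06 and 7.45, with a mean of 5.36 ± 3.72. The groups overlapped, because WT replicate 3 lay within the INFko TGFB+ range, and the log2 difference of -0.57 ± 0.30 (SE) did not pass the test (limma, Benjamini-Hochberg adjusted p = 0.910). The same probe set gave signals of 83.9, 54.3 and 44.6 in IFNko TGFB1 KO, livers that are also labelled as lacking Ifng, and of 85.9, 94.3 and 202 in TGFB KO. Its position relative to the disrupted part is not known, so it checks the labels neither way. Tgfb1 had signals of 391, 455 and 110 in WT and of 221, 163 and 180 in INFko TGFB+, again with WT replicate 3 lowest.

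WT replicate 3 also stood nearer to the other group than to its own over all genes. Its Spearman correlation with the 3 INFko TGFB+ arrays was between 0.971 and 0.972, and with the other 2 WT arrays 0.940 and 0.938. The INFko TGFB+ arrays correlated with each other at between 0.974 and 0.976, and WT replicates 1 and 2 with each other at 0.946. The median SD of a gene between replicates was larger in WT, at 0.273 on the log2 scale, than in INFko TGFB+, at 0.156, and 73.3% of genes had the larger SD in WT. Read from Xist and Eif2s3y, each group held 1 female (WT replicate 2, INFko TGFB+ replicate 1) and 2 males. Array median signals ran from 35.8 to 42.6 in WT and from 33.8 to 36.2 in INFko TGFB+. Some of the counts below are also given without WT replicate 3. Most list counts and gene differences are given only with it, and may move without it.

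**Figure D1:**
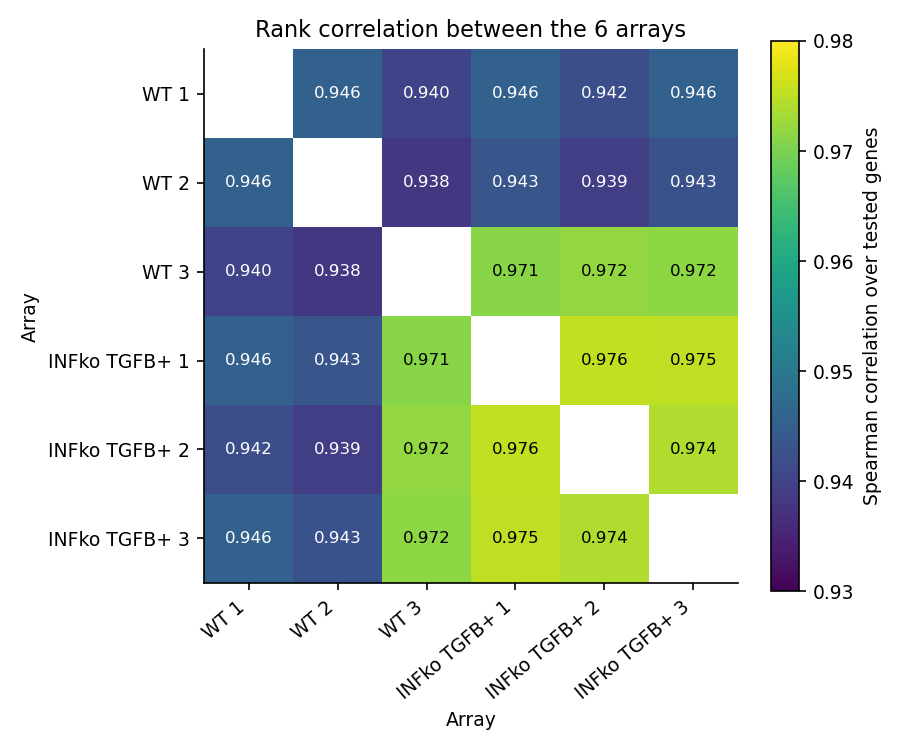
Spearman rank correlation between each pair of the 6 arrays over the 12755 tested genes, coloured from 0.93 to 0.98. WT replicate 3 correlates with the INFko TGFB+ arrays at 0.971 to 0.972 and with WT replicates 1 and 2 at 0.940 and 0.938.

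No single gene passed the test between INFko TGFB+ and WT. With limma and Benjamini-Hochberg adjustment over 12755 genes at a threshold of 0.05, 0 genes were higher (0%) and 0 lower (0%). At an unadjusted p under 0.05, 649 genes (5.09%) differed, 328 higher (2.57%) and 321 lower (2.52%) in INFko TGFB+. Without WT replicate 3, 1534 genes did. Among a further 4076 probe sets with no or several gene symbols, 0 passed and 320 had an unadjusted p under 0.05. The median standard error of a log2 fold change was 0.25, which gives a 95% confidence interval of 0.55 to either side, or 1.46-fold. That interval is for a single gene without adjustment, and passing the adjusted threshold over 12755 genes takes a larger difference. A gene that missed the threshold is not thereby shown to be equal in both groups. The log2 difference was under 0.5 in size for 88.2% of genes and over 1 for 141, or for 424 without WT replicate 3.

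As no gene passed, members are described by their levels in each array and by whether the 3 INFko TGFB+ values lie wholly below or above the 3 WT values. Over all genes this held for 851 genes on the lower side (6.67%) and 825 on the higher side (6.47%). Levels are log2(signal + 16) after quantile normalization, a scale on which the fold change of a dim gene comes out too small. In whole liver RNA, fewer cells of a type and less RNA per cell cannot be told apart.

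The IFN-gamma inducible GTPases, which disrupt the vacuoles of intracellular microbes, were lower in INFko TGFB+ in 9 of the 10 members tested. The arrays did not overlap for 7 of them, 70% against 6.67% of all genes, and the median log2 fold change was -0.42 against 0.00 for all genes. Of the 19 GTPases listed, 9 had no probe set with a single gene symbol, among them Gbp4, Gbp5, Tgtp1 and Tgtp2, so this is an account of those tested and not of the family. Family members share sequence, so a probe set can take up RNA of a neighbour and the members do not count as separate observations.

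The 250 bases before the start of 5 of these GTPase genes and of Irf1 are shown because they hold matches to the GAS or ISRE letters. The sequences are RefSeq's for the GRCm38.p6 assembly, of the strain C57BL/6J and not of the BALB/c mice, written 5′ to 3′ on the gene's strand. Capitals mark matches on either strand to the GAS letters TTCNNNGAA or to the ISRE core, which is GAAA, any 2 bases and GAAA again. In Gbp3 and Irgm1 a pair of ISRE core matches overlaps by 4 bases and is seen as a single run.
Gbp2 (chr3:142620413-142620662, plus strand): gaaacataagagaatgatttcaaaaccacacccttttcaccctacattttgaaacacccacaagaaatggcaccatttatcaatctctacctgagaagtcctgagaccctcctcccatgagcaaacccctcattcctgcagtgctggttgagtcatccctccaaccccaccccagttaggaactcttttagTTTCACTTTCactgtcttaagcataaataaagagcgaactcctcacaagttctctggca
Gbp2b (chr3:142594597-142594846, plus strand): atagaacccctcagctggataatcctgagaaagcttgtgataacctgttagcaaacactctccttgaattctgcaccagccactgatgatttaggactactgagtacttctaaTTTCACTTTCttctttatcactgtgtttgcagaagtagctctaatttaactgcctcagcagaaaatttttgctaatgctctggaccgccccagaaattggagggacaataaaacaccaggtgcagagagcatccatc
Gbp3 (chr3:142559794-142560043, plus strand): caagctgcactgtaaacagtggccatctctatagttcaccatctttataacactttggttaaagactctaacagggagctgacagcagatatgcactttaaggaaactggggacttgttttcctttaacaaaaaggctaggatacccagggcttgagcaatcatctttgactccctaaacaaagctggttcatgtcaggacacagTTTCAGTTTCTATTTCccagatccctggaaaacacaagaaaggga
Igtp (chr11:58199306-58199555, plus strand): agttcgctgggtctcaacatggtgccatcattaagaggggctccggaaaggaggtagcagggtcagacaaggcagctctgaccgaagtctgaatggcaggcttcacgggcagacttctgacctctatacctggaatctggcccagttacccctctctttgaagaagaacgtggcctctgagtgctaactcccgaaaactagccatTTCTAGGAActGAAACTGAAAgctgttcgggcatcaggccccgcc
Irgm1 (chr11:48871421-48871670, minus strand): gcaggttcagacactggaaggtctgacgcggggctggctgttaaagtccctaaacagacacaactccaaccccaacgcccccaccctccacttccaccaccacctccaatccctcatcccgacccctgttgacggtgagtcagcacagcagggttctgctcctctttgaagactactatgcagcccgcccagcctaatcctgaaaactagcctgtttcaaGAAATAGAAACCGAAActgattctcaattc
Irf1 (chr11:53769764-53770013, plus strand): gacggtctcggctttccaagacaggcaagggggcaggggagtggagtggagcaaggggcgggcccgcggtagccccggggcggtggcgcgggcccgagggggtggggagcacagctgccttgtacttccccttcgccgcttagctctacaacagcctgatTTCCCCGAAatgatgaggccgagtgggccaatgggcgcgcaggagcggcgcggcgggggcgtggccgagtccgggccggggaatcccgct
The ISRE core lies 59 to 50 bases before the start of Gbp2 and 137 to 128 bases before that of Gbp2b, as the reverse complement of GAAAGTGAAA in both. In Igtp a GAS match at 45 to 37 bases and an ISRE core at 34 to 25 bases before the start sit side by side, and Irf1 holds a GAS match at 90 to 82 bases. All 7 tested GTPase genes that matched the promoter table by symbol held an ISRE core (100%) and 3 held GAS letters (42.9%), while 3.46% of the 27025 genes in the table held the former and 8.13% the latter. Gbp3 and Irf1 have a second start in the table, whose window holds neither motif. Of the 31 members of the 5 IFN-gamma lists described below that were lower without overlap, 25 matched the promoter table. Among these 25, 9 held an ISRE core (36%) and 5 GAS letters (20%). The shares among the other tested members that matched were 14% and 20%. Cxcl9, Ubd, H2-K1, H2-D1, Psmb9 and Tap1 held neither. A match is a run of letters and not a bound site.

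Gbp3 had the largest difference of the GTPases. Its log2 levels were 7.49, 7.09 and 7.06 in WT and 5.95, 6.70 and 6.20 in INFko TGFB+, a difference of -0.93 ± 0.27 (1.91-fold lower, unadjusted p = 0.00488, limma adjusted p = 0.910). Gbp2 stood at 8.57, 7.98 and 8.16 in WT and at 7.48, 7.55 and 7.78 in INFko TGFB+, or -0.63 ± 0.18. Gbp2b stood at 8.08, 7.54 and 7.72 in WT against at most 7.23 in INFko TGFB+, a difference of -0.66 ± 0.20. In each of these genes every INFko TGFB+ liver was below every WT liver. Igtp, which encodes the immunity-related GTPase IRGM3, had levels of 10.05, 9.40 and 9.79 in WT and of 9.29, 9.31 and 8.97 in INFko TGFB+, a difference of -0.55 ± 0.21. For Gbp2, Gbp2b and Igtp the WT liver nearest to INFko TGFB+ was replicate 2 and not replicate 3.

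Gbp7 (-0.44 ± 0.18), Gbp6 (-0.39 ± 0.20) and Irgm1 (-0.22 ± 0.16) were lower without overlap as well. Irgm2 (-0.35 ± 0.21) and Gbp8 (-0.19 ± 0.28) were lower on average with overlap. Iigp1 had the same mean in both groups, with levels of 12.12, 11.27 and 12.37 in WT and of 11.81, 12.14 and 11.82 in INFko TGFB+. Further probe sets of Gbp2 (-0.30) and Gbp7 (-0.12) were lower with overlap, and one of Gbp6 (-0.59) without. In the plot of levels by array the gap between the groups is narrow beside the spread of WT for most GTPases.

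**Figure D2:**
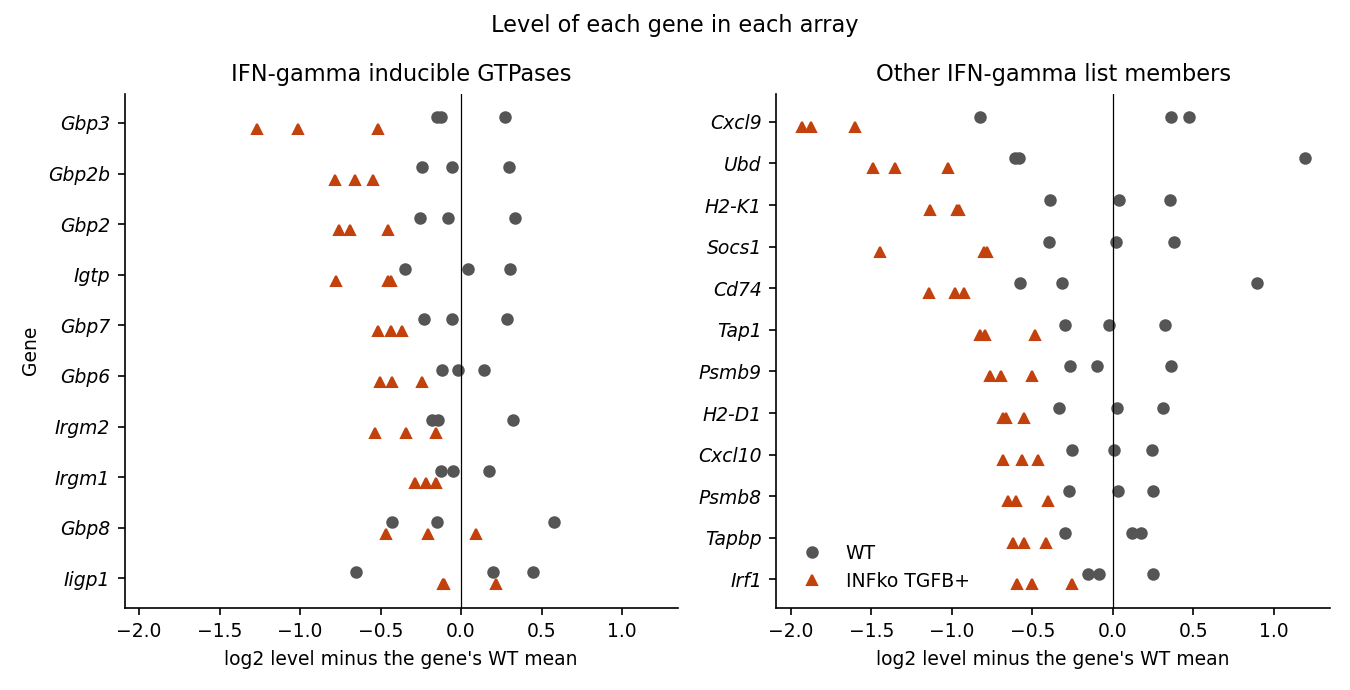
Level of each gene in each array as log2 level minus the gene's WT mean, for the 10 GTPases tested (left) and for 12 other members of the IFN-gamma lists chosen after their values were seen (right); circles are WT and triangles INFko TGFB+. The INFko TGFB+ values of 7 GTPases lie wholly below the WT values, and Cxcl9 has the widest gap.

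Of the 22 tested genes of the receptor, the JAK-STAT pathway and its regulators, 4 were lower and 2 higher without overlap (18.2% and 9.09%), with a median of -0.04. Ifngr1 was at 0.07 ± 0.27, Jak1 at -0.14 ± 0.20 and Jak2 at 0.17 ± 0.18, all with overlap, while Ifngr2 was at -0.44 ± 0.24 without overlap and its other probe set at -0.25 with overlap. Socs1, the inhibitor that switches JAK signalling off, had levels of 5.92, 5.57 and 5.15 in WT and of 4.75, 4.10 and 4.76 in INFko TGFB+, a difference of -1.01 ± 0.27 (unadjusted p = 0.00298, limma adjusted p = 0.910). The level of Socs1 in INFko TGFB+ is under the brightness filter of 5.25. The transcription factor gene Irf1 was at 9.17, 8.84 and 8.77 against 8.67, 8.42 and 8.33, or -0.45 ± 0.21, and Irf2, an antagonist of IRF1, at -0.71 ± 0.30. The phosphatase gene Ptpn2, which acts on JAK1, was higher without overlap at 0.54 ± 0.21, but its 3 other probe sets overlapped (0.07, 0.40 and 0.21). Ptpn6 was higher at 0.32 ± 0.16, and its other probe set was at 0.02 with overlap.

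Cxcl9 had the largest difference among the 43 tested effector genes. CXCL9 draws activated T cells through the receptor CXCR3. Its signals were 276, 106 and 302 in WT and 42.3, 55.8 and 43.3 in INFko TGFB+. On the log2 scale these are levels of 8.21, 7.03 and 8.33 against 5.92, 6.26 and 5.98, so WT replicates 1 and 3 were high, WT replicate 2 was intermediate and the 3 INFko TGFB+ livers lay close together. The difference was -1.80 ± 0.29 (95% confidence interval -2.45 to -1.16, 3.49-fold lower), the second smallest p of all genes, and missed the threshold (unadjusted p = 6.24e-05, limma adjusted p = 0.398). Without WT replicate 2 it was -2.22 and passed (adjusted p = 0.00326, between 0.00326 and 1 over the alternatives). A second, dimmer probe set of Cxcl9 was at -0.71 without overlap.

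Ubd, an inducible ubiquitin-like modifier, was next, with levels of 7.85, 6.08 and 6.05 in WT and of 5.17, 5.31 and 5.64 in INFko TGFB+, or -1.29 ± 0.41. WT replicate 1 was well above the other 2 WT livers. Cxcl10, another ligand of CXCR3, was at 7.29, 6.79 and 7.06 against 6.58, 6.36 and 6.48 (-0.57 ± 0.21), and Ccl5 at 7.15, 6.97 and 6.72 against 6.57, 6.51 and 6.12 (-0.54 ± 0.21). Both were lower in every INFko TGFB+ liver. Vcam1 (-0.55 ± 0.25), which holds leukocytes on endothelium, and C1ra (-0.43 ± 0.20), a protease of the complement cascade, were lower without overlap too. The other 2 probe sets of Vcam1 overlapped, at -0.13 and 0.10. Wars, a tryptophanyl-tRNA synthetase gene, was at -0.48 ± 0.21, but 1 of its other probe sets was higher without overlap (0.42) and 2 were lower (-0.37 and -0.30). Cd274, the gene of the checkpoint ligand PD-L1, was at -0.85 ± 0.30 with overlap. In all, 9 of the 43 effector genes were lower without overlap (20.9%) and 1, the complement gene Cfb, was higher (0.13 ± 0.17), and the median was -0.12. Cxcl11, the third CXCR3 ligand, was at 0.59 ± 0.46 and Icam1 at 0.06 ± 0.18, both with overlap.

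The genes of MHC class I presentation were lower without overlap in 8 of 21 cases (38.1%), higher in 1, with a median of -0.19. H2-K1, a classical class I heavy chain gene, had levels of 11.80, 11.48 and 11.06 in WT and of 10.31, 10.48 and 10.49 in INFko TGFB+, a difference of -1.02 ± 0.24 (2.03-fold lower, unadjusted p = 0.00130, limma adjusted p = 0.910). All 4 H2-K1 probe sets were lower without overlap, the other 3 at -1.01, -1.36 and -0.84. H2-D1 was at 11.93, 11.28 and 11.64 against 10.95, 11.06 and 10.93, or -0.63 ± 0.21, and its 8 other probe sets were all lower, 5 of them without overlap. Class I genes share long stretches of sequence, so these probe sets may read each other's RNA. The light chain gene B2m was at 0.06 ± 0.15 with overlap.

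The members that act before peptide loading did not pass the test either. Psmb9, a catalytic subunit of the immunoproteasome, had levels of 9.55, 9.09 and 8.92 in WT and of 8.68, 8.49 and 8.42 in INFko TGFB+ (-0.66 ± 0.26), and Psmb8 of 9.54, 9.32 and 9.01 against 8.89, 8.64 and 8.69 (-0.55 ± 0.21). A dimmer second probe set of Psmb8 was at 0.24 with overlap, and the mean of both gave -0.16. The peptide transporter gene Tap1 was at 7.85, 7.49 and 7.22 against 6.70, 6.72 and 7.04 (-0.70 ± 0.33). Tapbp, which tethers class I molecules to that transporter, was at -0.53 ± 0.23 (its other probe set at -0.27 with overlap), and Nlrc5, the class I transactivator, at -0.66 ± 0.27 with overlap. WT replicate 3 was the lowest WT liver for H2-K1, Psmb8, Psmb9 and Tap1, and still lay above all 3 INFko TGFB+ livers. The chaperone gene Canx was the member higher without overlap (0.43 ± 0.22), and its other 2 probe sets overlapped at 0.11 and 0.03.

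Among 10 tested genes of MHC class II presentation 3 were lower without overlap (30%) and 1 was higher, with a median of -0.27. Cd74, the invariant chain that guides class II molecules to endosomes, had levels of 9.86, 8.66 and 8.39 in WT and of 8.05, 7.99 and 7.83 in INFko TGFB+, or -1.02 ± 0.46, with WT replicate 1 far above the rest. The class II chain genes H2-Aa (-0.36 ± 0.31), H2-Ab1 (-0.33 ± 0.27) and H2-Eb1 (-0.23 ± 0.36) overlapped. The endosomal enzyme genes Lgmn (-0.42 ± 0.25) and Ifi30 (-0.19 ± 0.23) were lower. H2-DMb2 was higher at 0.81 ± 0.37, against -0.07 and -0.11 for its other 2 probe sets, which overlapped.

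Some macrophage genes were lower beside them. Of 18 tested Kupffer cell and macrophage genes, 4 were lower without overlap (22.2%) and 0 higher, with a median of -0.10. The scavenger receptor gene Marco had levels of 8.62, 8.41 and 8.39 in WT and of 8.01, 7.75 and 7.32 in INFko TGFB+ (-0.78 ± 0.21, unadjusted p = 0.00346, limma adjusted p = 0.910). C1qc (-0.51 ± 0.20), Cd5l (-0.44 ± 0.18) and Msr1 (-0.27 ± 0.16) were the others. The Kupffer cell genes Clec4f (-0.08 ± 0.18), Vsig4 (-0.06 ± 0.23) and Adgre1 (-0.10 ± 0.19) overlapped. The summed signal of the list was 14310, 12280 and 16090 in WT and 13660, 13660 and 13410 in INFko TGFB+, so the sums overlapped, and the lowest signal of any member was 48.3. The part of macrophage RNA in the class II and other IFN-gamma list values was not tested.

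Over the 5 lists together, 31 of the 106 tested members were lower in INFko TGFB+ without overlap (29.2% against 6.67% of all genes) and 5 were higher (4.72% against 6.47%). At an unadjusted p under 0.05, 20 of the 106 were lower and 2 higher, where 2.52% and 2.57% of all genes were. None passed the adjusted threshold. The 20 became 8 without WT replicate 1, 12 without INFko TGFB+ replicate 2 and 10 without INFko TGFB+ replicate 3. The 2 became 7 without WT replicate 3, 3 without WT replicate 2 or INFko TGFB+ replicate 3, and 1 without each of the other 3 arrays. The count over all genes moved too. It was 649 with every array (321 lower), 1534 without WT replicate 3 (712 lower), and between 419 and 459 without any other array (184 to 233 lower). The median log2 fold change was -0.16 and 72 members were below 0. Another scaling moved these counts. With each array centred on its median in place of quantile normalization, the median over all genes was 0.10, 59 of 105 members lay below 0 and 72 below that median, and 4 GTPases did not overlap, with 9 of the 10 still below 0. Of the 137 genes listed, 112 had a probe set with a single symbol.

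With WT replicate 3, the array nearest to INFko TGFB+, as the only WT liver, there is no spread for WT and no test, and the values are a description. All 10 GTPases (100%) were higher in that liver than in each INFko TGFB+ liver, as were 59 of the 106 members (55.7%), against 25.6% of all genes. Kupffer cell and macrophage genes did so in 15 of 18 cases (83.3%). The median of the INFko TGFB+ mean minus WT replicate 3 was -0.58 for the GTPases, -0.17 for the 106 members and 0.00 for all genes. Without WT replicate 3, the GTPase median was -0.40 and 41 members were lower without overlap, where 21.2% of all genes were. Leaving out each of the other 5 arrays gave between 32 and 43 members, where the share of all genes was 10% to 11.6%.

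**Figure D3:**
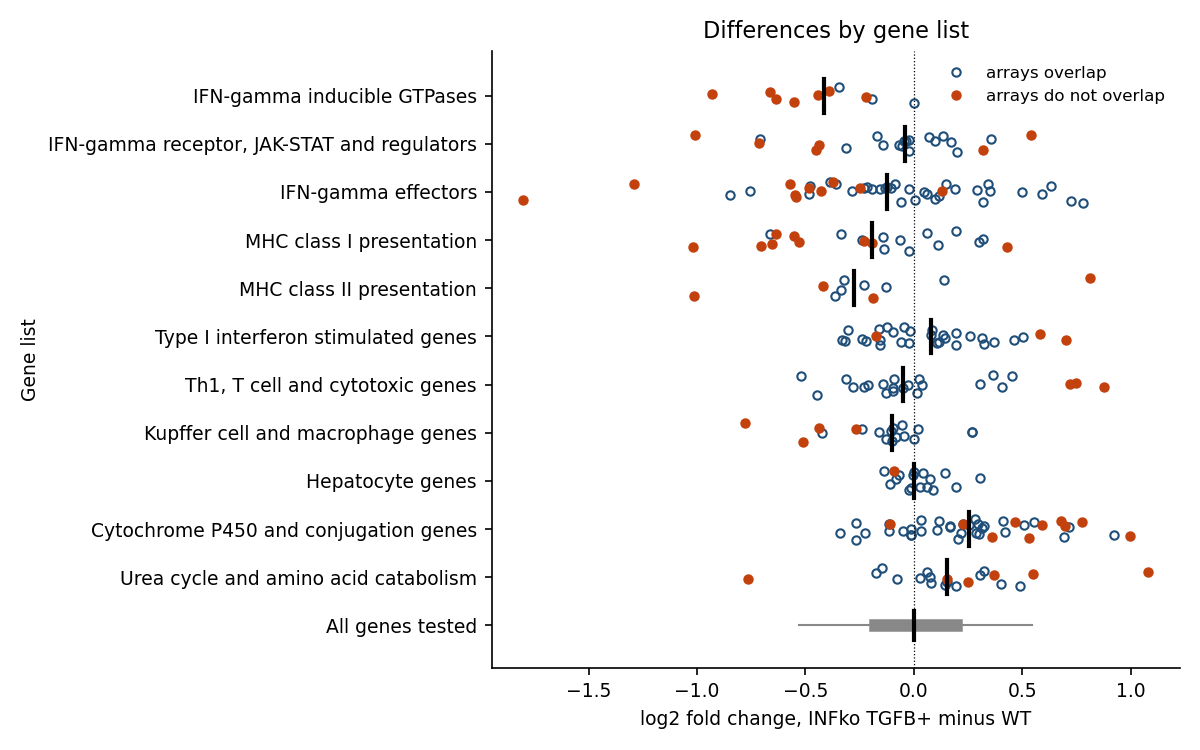
Log2 fold change of INFko TGFB+ minus WT for each tested gene of 11 lists (circles, filled where the arrays of the groups do not overlap), with the list median as a vertical bar. The lowest line shows all 12755 genes as a box from the 25th to the 75th percentile with whiskers from the 5th to the 95th. The GTPases centre on -0.42 and the type I interferon stimulated genes on 0.08.

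Type I interferon stimulated genes, many of which share ISRE elements with the members above, had a median of 0.08. Of 31 tested, 1 was lower and 2 higher without overlap (3.23% and 6.45%, near the shares of all genes). Eif2ak2, the double-stranded RNA sensor kinase PKR, was among the higher ones, with levels of 6.36, 6.65 and 6.91 in WT and of 7.28, 7.30 and 7.45 in INFko TGFB+ (0.70 ± 0.19, unadjusted p = 0.00285, limma adjusted p = 0.910). In the livers without Tgfb1 the list did differ with Ifng. In IFNko TGFB1 KO against TGFB KO, 20 of the 31 passed as lower by limma and 0 as higher, with a median of -1.37.

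Lymphocytes are the main source of IFN-gamma. Among 23 Th1, T cell and cytotoxic genes 0 were lower and 3 higher without overlap (0% and 13%). The shares of all genes were 6.67% and 6.47%. The 3 were Cd247 (0.72 ± 0.20), Cd5 (0.88 ± 0.27) and the chemokine gene Ccl3 (0.75 ± 0.31), all dim. Their mean levels in WT, 4.57, 4.85 and 4.18 in that order, lie under the brightness filter. In INFko TGFB+ the means were 5.29, 5.73 and 4.93, and that of Ccl3 lies under the filter too. The 13% thus rests on genes too dim in WT to measure, and no rise of the list is read from it. The summed signal of the list overlapped, at 758 to 827 in WT and 623 to 868 in INFko TGFB+. The lists of NK (8 genes), B and plasma (12), dendritic (5) and sinusoidal endothelial cells (12) had 0 members without overlap in either direction. At the shares of all genes, lists this short would hold few or none. The hepatocyte list had a median of 0.00 over 17 genes, with Alb at -0.08 ± 0.14.

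The metabolic lists differed in direction. Of 43 cytochrome P450 and conjugation genes, 9 were higher and 1 lower without overlap (20.9% and 2.33%), 32 lay above 0 and the median was 0.25. Aldh1a1, which oxidises retinaldehyde, had levels of 8.78, 8.43 and 9.18 in WT and of 9.52, 10.18 and 9.67 in INFko TGFB+ (1.00 ± 0.32). Of 20 urea cycle and amino acid catabolism genes 5 were higher and 1 lower (25% and 5%), with a median of 0.15. Oat, the ornithine aminotransferase of the liver cells around the central vein, had levels of 9.26, 9.86 and 10.13 against 10.82, 11.06 and 10.62 (1.08 ± 0.24, 2.12-fold higher, unadjusted p = 0.000887, limma adjusted p = 0.910). For both Aldh1a1 and Oat, WT replicate 3 was the WT liver nearest to INFko TGFB+. In cholesterol synthesis and lipogenesis 18 of 30 genes lay below 0 (2 lower and 1 higher without overlap), and in fasting and gluconeogenesis 15 of 22 (1 lower and 0 higher). Fatty acid oxidation had 1 in each direction. Asns, the asparagine synthetase of the amino acid stress response, was at 0.89 ± 0.24 and the endoplasmic reticulum chaperone gene Hyou1 at -0.68 ± 0.20.

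Some differences came from 1 or 2 livers. The male-biased steroid enzyme gene Hsd3b5 was high in 2 WT livers and low elsewhere, with levels of 8.64, 9.17 and 5.02 in WT and of 5.13, 4.17 and 5.52 in INFko TGFB+. Its difference of -2.67 ± 0.82 did not pass, and without WT replicate 3 it was -3.96 and did (limma adjusted p = 0.00362, between 0.00362 and 1 over the alternatives). WT replicate 2, one of the high livers, was female by Xist. The 6 tested genes of pancreas, intestine and adipose tissue were all above 0 (median 0.68), and their summed signal was 7081 in INFko TGFB+ replicate 2 and between 3790 and 4648 in the other 5 livers. The pancreatic enzyme genes Ctrb1 and Cel reached signals of 1260 and 658 in that replicate, against at most 21.7 and 46.8 in the other 5. Of the 25 tested genes on each side of Ifng on its chromosome, 2 were lower and 3 higher without overlap, and the median was -0.05. Of 17 stellate cell and matrix genes 13 lay below 0, 3 of them without overlap (17.6% against 6.67% of all genes), with a median of -0.15. Of 20 genes of the transforming growth factor beta pathway and its targets, 4 were higher and 1 lower without overlap (20% and 5%). The shares of all genes were 6.47% and 6.67%. Smad6 was at 0.65 ± 0.21 and Id2 at 0.72 ± 0.27. Of 12 sex-biased genes 3 were higher and 0 lower (25% and 0%), and of 14 erythroid genes 2 and 0 (14.3% and 0%). Of 24 bile acid genes 3 were higher and 2 lower (12.5% and 8.33%). Apart from these, each list not described had at most 2 members without overlap in either direction, up to 16.7% of those tested.

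The smallest p of all genes belonged to Asb4, a substrate receptor of ubiquitin ligases, at 4.66, 4.30 and 4.49 in WT and 5.85, 5.73 and 5.51 in INFko TGFB+ (1.21 ± 0.18, unadjusted p = 2.92e-05, limma adjusted p = 0.373). All 3 WT levels of Asb4 lie under the brightness filter of 5.25, and its difference ran from 0.30 (mean of its probe sets) to 2.38 (pseudocount 1) over the alternatives. Cfc1, a co-receptor of Nodal signalling, followed Cxcl9 at -1.37 ± 0.24 (limma adjusted p = 0.569), and the aldo-keto reductase gene Akr7a5 was at -0.84 ± 0.17. H2-T3, a non-classical class I gene outside the lists, was at -1.43 ± 0.33. Asb4, Cfc1, Akr7a5 and H2-T3 were chosen after their values were seen.

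The same genes spanned a far wider range in the livers without Tgfb1. IFNko TGFB1 KO against TGFB KO, which shares no array with the comparison above, had 360 genes lower (2.82%) and 324 higher (2.54%) by limma. All 10 GTPases fell, with a median of -3.52, and 69 of the 106 members fell and 1 rose. For Gbp2 the mean level was 8.24 ± 0.30 (SD, n = 3) in WT, 7.60 ± 0.16 in INFko TGFB+, 12.03 ± 0.15 in TGFB KO and 7.98 ± 0.11 in IFNko TGFB1 KO. Igtp stood at 9.75 ± 0.33, 9.19 ± 0.19, 12.74 ± 0.09 and 8.46 ± 0.29 in the same order, and Cxcl9 at 7.86 ± 0.72, 6.05 ± 0.18, 12.49 ± 0.12 and 6.19 ± 0.20. For these genes INFko TGFB+ was a small step below WT and TGFB KO a large step above it.

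**Figure D4:**
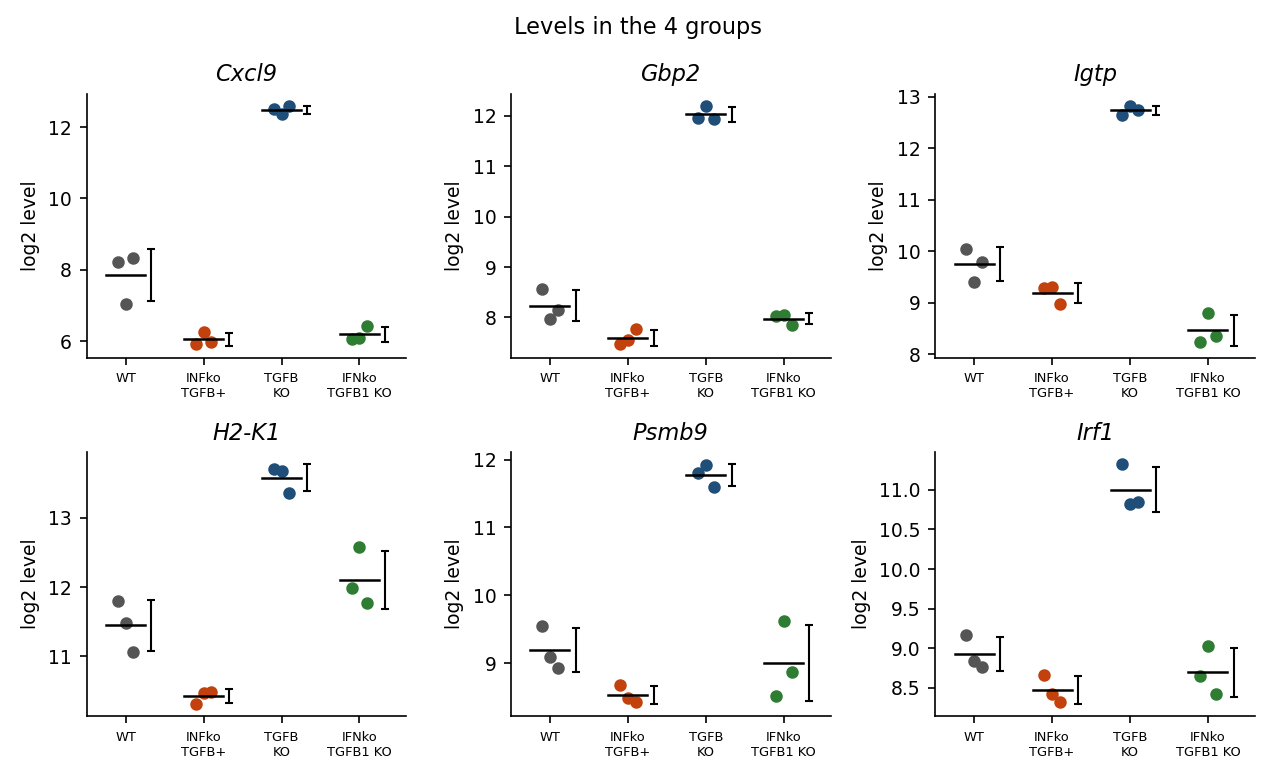
Log2 level of 6 genes in each array of the 4 groups (points), with the mean as a horizontal line and ± 1 SD as a bracket (n = 3 arrays per group). TGFB KO is the highest group for each of the 6, and INFko TGFB+ lies below WT.

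The effect of Ifng loss itself was tested for a difference between the Tgfb1-positive livers and the livers without Tgfb1. The difference, INFko TGFB+ minus WT less IFNko TGFB1 KO minus TGFB KO, passed for 111 genes by limma, 80 positive (0.627%) and 31 negative (0.243%). A positive value marks a fall that was deeper in the livers without Tgfb1 for each GTPase. It passed for 9 of the 10 GTPases, from 2.15 ± 0.40 for Gbp8 to 3.72 ± 0.30 for Igtp (adjusted p = 0.0308 and 0.000123), and for 33 of the 106 members, all positive. Gbp3 missed it (1.83 ± 0.38, adjusted p = 0.0520). Cxcl9 had a difference of 4.50 ± 0.42 (adjusted p = 0.000370). With the labels' replicate numbers as a block the difference passed for 29 genes in place of 111, and leaving out 1 array gave between 46 (without INFko TGFB+ replicate 2) and 160 (without IFNko TGFB1 KO replicate 3).

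Among the MHC lists, class II genes passed in 4 of 10 cases, as H2-Eb1 did at 3.79 ± 0.50 (adjusted p = 0.00518) and H2-Ab1 at 2.77 ± 0.38 (adjusted p = 0.00640). Class I genes passed in 2 of 21, Psmb9 (2.11 ± 0.37, adjusted p = 0.0245) and Tap1 (2.30 ± 0.47, adjusted p = 0.0469). H2-K1 had log2 differences of -1.02 ± 0.24 in the Tgfb1-positive livers and -1.47 ± 0.24 without Tgfb1, which differed by 0.45 ± 0.34 (adjusted p = 0.667), and H2-D1 had -0.63 ± 0.21 and -0.99 ± 0.21. Whether the classes themselves differ was not tested.

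Among the 360 genes that fell in IFNko TGFB1 KO against TGFB KO, 60 were lower in INFko TGFB+ than in WT without overlap (16.7% against 6.67% of all genes), 14 were higher and 234 lay below 0, with a median of -0.10. The count of 60 was 118 without WT replicate 3, where the share of all genes lower without overlap also rose, to 21.2%. It was 39 without TGFB KO replicate 1. Of the 324 that rose, 15 were lower (4.63%) and 31 higher, with a median of 0.07. Across genes, which are not independent replicates, the log2 fold changes of the 2 comparisons had a Pearson r of 0.157 over the 12755 genes and of 0.551 over the 106 members, 67 of which were below 0 in both. The pairs of values come from separate arrays that were normalized together.

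**Figure D5:**
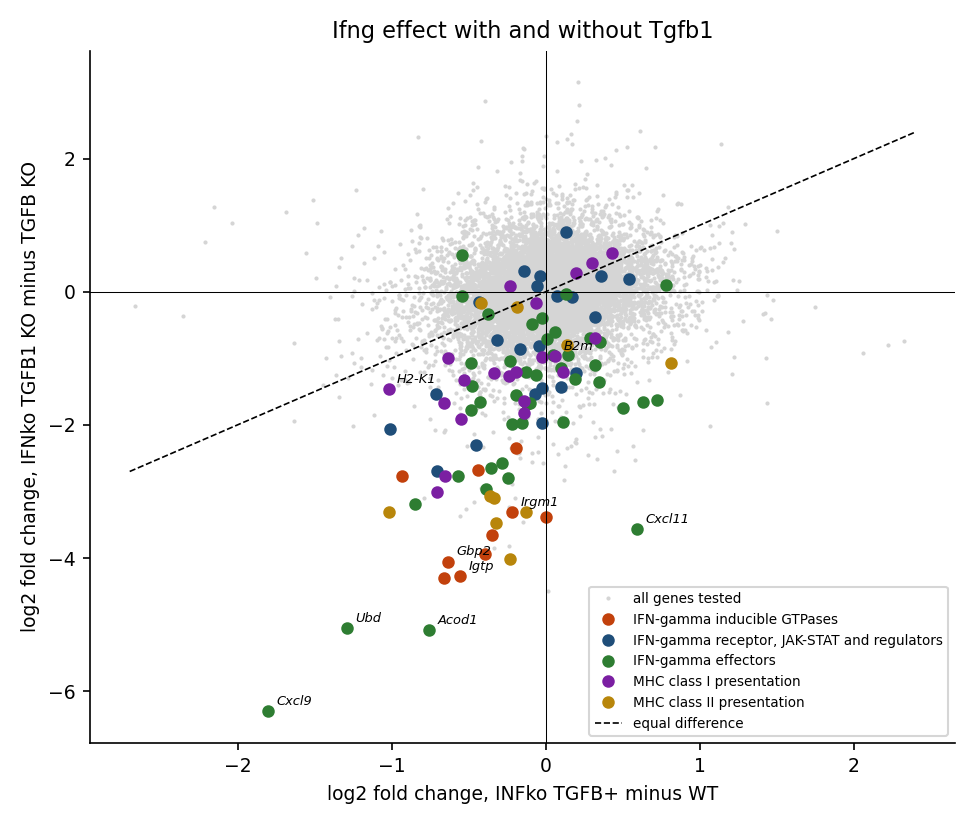
Log2 fold change of INFko TGFB+ minus WT (horizontal) against IFNko TGFB1 KO minus TGFB KO (vertical) for the 12755 tested genes (grey) and the 106 members of the 5 IFN-gamma lists (coloured by list); the dashed line marks equal differences. Most members lie below that line, as Cxcl9 does at -1.80 and -6.30, and H2-K1 lies near it at -1.02 and -1.47.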

How the data were processed

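Liver RNA prepared with Trizol was biotin-labelled in one cycle, per the labels' protocols, and hybridized to 12 one-colour arrays of 45101 probe sets, 3 mice per group. The authors deposited 1 linear signal intensity for every probe set. Each array's mean, taken after trimming 2% at both ends, is 150.001, so these deposited intensity values had been scaled. The signal algorithm is not given in the sources used here. The number of arrays limits the precision. The unnumbered INFko TGFB+ array is called replicate 1.

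A pseudocount of 16 was added, log2 taken and the 12 arrays quantile normalized. The 64 control probe sets and those with a mean under the 40th percentile (log2 5.25) were left out. Of the probe sets, 34958 carry 1 gene symbol, 932 several and 9211 none, and 34754 symbols were updated through a RefSeq table of GRCm38.p6. Each gene was read from its brightest probe set with 1 symbol, which left 12755 genes. The model was limma 3.58.1 in R 4.3.3 (group means by lmFit on the 12 arrays, eBayes, 8 residual and 3.44 prior degrees of freedom), two-sided, with Benjamini-Hochberg adjustment. Values after ± are standard errors unless given as SD. The procedure was tested on simulated data.

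The comparison and the 32 gene lists, the neighbours of Ifng among them, were chosen with earlier results of these data known. The genes named are Ifng, Tgfb1, members of the 5 IFN-gamma lists, up to 4 members with the smallest p of every other list, and the 6 largest differences each way between the Ifng effects. The parts of the rule on genes past the threshold named none, as 0 passed. Alb, Adgre1, Clec4f and Vsig4 are named as defining markers, and genes that passed only under an alternative are named with it. The labels do not state whether the replicate numbers pair the mice, and no block was used. Deviations from the group means correlated at -0.04 for number 2 and -0.03 for number 3, which with 3 arrays per group cannot settle it.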

Additional observations from a re-analysis of the deposited data

Results flagged for a closer look

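The log2 difference that goes with the loss of Ifng was not the same in Tgfb1-positive livers and in livers without Tgfb1 for 31 named genes, by the test of the difference itself (limma, adjusted p from 0.000122 to 0.0469). Values are (INFko TGFB+ minus WT) minus (IFNko TGFB1 KO minus TGFB KO) on the log2 scale, with 3 arrays per group. The difference was positive for 25 genes and negative for 6. Over all 12755 genes it passed for 80 positive (0.627%) and 31 negative (0.243%). The named genes were chosen in part by this same test, and the naming rule set the number of negative ones, so their split is not a result.

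The GTPase genes had differences of 3.42 for Gbp2, 3.63 for Gbp2b, 3.56 for Gbp6, 2.23 for Gbp7, 2.15 for Gbp8, 3.72 for Igtp, 3.10 for Irgm1, 3.32 for Irgm2 and 3.38 for Iigp1. Iigp1 was at 0.00 between INFko TGFB+ and WT. The transcription factor genes Irf1 and Irf8 had 1.85 and 1.95. The chemokine genes had 4.50 for Cxcl9, 2.19 for Cxcl10 and 4.16 for Cxcl11. The mean level of Cxcl11 was 4.79 in WT, under the brightness filter of 5.25, and 5.38 in INFko TGFB+, against 9.74 in TGFB KO. Its 0.59 between INFko TGFB+ and WT is thus a difference between groups near that filter. Among inducible effectors Ubd had 3.77, Cd274 had 2.34 and the itaconate-producing enzyme gene Acod1 had 4.32. Acod1 passed the brightness filter through TGFB KO (mean level 9.85). Its means of 4.93 in WT and 4.17 in INFko TGFB+ lie under that filter of 5.25, so its Ifng effect in the Tgfb1-positive livers was not measurable. The presentation genes had 2.11 for Psmb9, 2.30 for Tap1, 2.77 for H2-Ab1, 2.71 for H2-Aa, 3.15 for H2-DMa and 3.79 for H2-Eb1.

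Mmp13, a collagenase gene, had 4.50, from 0.01 in the Tgfb1-positive livers and -4.49 without Tgfb1. Its means of 4.80 in WT, 4.81 in INFko TGFB+ and 4.90 in IFNko TGFB1 KO lie under the filter, against 9.39 in TGFB KO, so the 0.01 is a difference between groups too dim to measure. Asb4 had 2.44, from 1.21 in the Tgfb1-positive livers, which did not pass the test, and -1.24 without Tgfb1, which did.

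The negative differences were those of Il13ra2, the decoy receptor of interleukin 13 (-3.14), Lum (-2.94), Ly6d (-2.59), Cd209f (-2.36), Postn (-2.34) and Reln (-2.31). Il13ra2 had means of 4.61 in INFko TGFB+ and 4.89 in TGFB KO, under the filter, against 5.43 in WT and 7.21 in IFNko TGFB1 KO. Lum, Postn and Reln are matrix or stellate cell genes that rose in IFNko TGFB1 KO against TGFB KO, by 3.15, 2.35 and 2.16, and were at 0.21, 0.00 and -0.15 between INFko TGFB+ and WT.

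Of these 31 genes 12 passed under every alternative that gave a value for them. Tap1, Cd274, Gbp8, Psmb9, H2-DMa and Ly6d each missed the threshold in 8 or more of them.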

How the results depend on the processing

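Between INFko TGFB+ and WT, the counts of genes higher and lower, 0 each, stayed at 0 under the alternatives tried except with arrays left out or paired. The count higher ran from 0 to 1 with 1 array left out (Efcab2 without WT replicate 2 at 2.07, adjusted p = 0.0195, and Lztr1 without WT replicate 3 at 2.02, adjusted p = 0.0167). The count lower also ran from 0 to 1 (Cxcl9 without WT replicate 2, Hsd3b5 without WT replicate 3, and Cox6b2 at -3.57 without INFko TGFB+ replicate 1, adjusted p = 2.00e-05). Members of the 5 lists called lower, and genes called lower in both Ifng comparisons, ran from 0 to 1. Genes at an unadjusted p under 0.05 ran from 419 (without INFko TGFB+ replicate 1) to 1534 (without WT replicate 3), with 430 without INFko TGFB+ replicate 3. Lztr1 reversed to -0.30 with only the 6 arrays normalized together, and the cause was not tested.

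With the replicate block, 1 gene was lower (Cox6b2, adjusted p = 0.000849), 428 genes had an unadjusted p under 0.05 and the difference of the Ifng effects passed for 29. Whether the replicate numbers pair the mice is not stated. The difference passed for 57 genes with a pseudocount of 1, 212 with 64 and 188 with an intensity trend and robust prior, and for 46 to 160 with 1 array left out (73 or fewer without WT replicate 2, each INFko TGFB+ array or each TGFB KO array). Genes lower in IFNko TGFB1 KO and lower in INFko TGFB+ without overlap ran from 39 to 118 with 1 array left out. The 118 is without WT replicate 3, where 21.2% of all genes were lower without overlap, against 6.67% with every array. The counts without overlap, leaving out TGFB KO and IFNko TGFB1 KO arrays for the difference, and the use of WT replicate 3 alone were chosen after seeing the data.

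With the deposited scaling 45.2% of the genes at an unadjusted p under 0.05 were higher, and with median centring 69.5%, against 50.5%. Members of the 5 lists lower without overlap ran from 24 to 43. Of 71 named genes 70, all but Lztr1, kept their direction under each alternative that gave a value.

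For a typical gene the unadjusted 95% confidence interval reaches about 1.46-fold to either side, and passing the adjusted threshold takes a larger difference. Dim genes are understated, and the results rest on 3 mice per group.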
